A study of Mus musculus with 3 samples.

Results

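Cadherins, the protocadherins that lie outside the large gene cluster, their giant relatives of the Celsr, Fat and Dachsous families, the calsyntenins and the alpha- and delta-catenins were followed in neural stem cells (NSCs) of the mouse, labelled as lacking Dnmt3a (KO) or as wild type (WT). Members were taken by gene name, with no threshold on their values, though the gene families were chosen with earlier results of these data known: every probe whose listed gene name began with Cdh, Pcdh, Celsr, Fat, Dchs, Clstn, Ctnna or Ctnnd followed by a digit. The rule found 50 genes, covered by 101 of the 41174 probes other than controls (110 spots). Of these 50 genes, 34 had a probe well above background in at least 1 channel on all 3 arrays and were tested among 18033 genes. The other 16 were not tested and are described further on.

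The RNA labelled KO came from NSCs with the genotype Dnmt3a-/-, and the RNA labelled WT from NSCs with the genotype wildtype. Both were grown from mouse embryonic stem cells through neurospheres to adherent cultures in serum-free N2B27 medium with EGF and bFGF. Per the labels there were 3 biological replicates, each a 2-colour array with the RNA labelled KO in Cy3 (green) and the RNA labelled WT in Cy5 (red). Neither the deleted part of Dnmt3a nor the number of cell clones behind each genotype is stated in the labels. Values are the log2 of the labelled KO signal divided by the labelled WT signal, so 1 unit is a 2-fold difference, and a gene was called different at an adjusted p under 0.05. The dyes were not exchanged on any array and all 3 lay on 1 slide, so a probe's bias toward 1 dye and an effect of the slide cannot be told apart from genotype.

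Dnmt3a itself went against the labels. Its log2 ratios were 1.07, 0.97 and 0.92 on arrays 1 to 3 (mean 0.99 ± 0.076 SD, n = 3), and its other probes averaged 0.61 and 0.76, all higher in the RNA labelled KO. The positions deleted are not given in the labels, so these probes may lie outside them and do not check the labels. Every direction given here therefore rests on the channel labels, and all would turn together if the channels were exchanged. All 12 NSC markers listed, among them Sox2, Nes and Vim, were tested, that is, above background. The 12 fibroblast and mesenchyme markers were too, and so were 6 of the 7 astrocyte markers. The remaining astrocyte marker, Gfap, was never well above background.

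Cadherins are transmembrane proteins whose extracellular repeats bind like molecules on a neighbouring cell in the presence of calcium. Classical cadherins are tied inside the cell to actin through catenins: delta-catenins (p120) hold the cadherin at the membrane, beta-catenin binds its tail, and alpha-catenins reach actin. In the embryonic brain N-cadherin (Cdh2) holds neural progenitors together at the ventricular surface. Non-clustered protocadherins adhere more weakly and are expressed in regional patterns in the nervous system. Celsr proteins align cells within a sheet (planar cell polarity), Fat and Dachsous proteins bind one another and feed into planar polarity and Hippo signalling, and calsyntenins link vesicles to kinesin motors and occur at synapses.

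Among the 34 tested members, 11 were higher and 13 lower in the RNA labelled KO, and 10 did not pass the threshold (limma, Benjamini-Hochberg over all 18033 genes). Of those lower, Pcdh20 and Pcdh11x entered the test only through the labelled WT channel, where they are higher. With the filter applied to both channels, 11 members were higher and 11 lower. Over all genes tested, 48.0% were called, 22.5% higher and 25.5% lower, so that a call in itself was common in these arrays. The same shares are the background for every count of called genes in the marker and partner lists below. The members' share of calls was 70.6%, and the difference between these shares was not tested. The members' median log2 ratio was -0.028, against -0.011 for all genes. The differences were small. Among the 24 members called in the values reported, the median size was 0.21 on the log2 scale (0.20 over all genes called). In those values 1 member (Pcdh9) reached 1.5-fold and 0 reached 2-fold, against 719 and 210 of all genes called.

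The way the arrays were centred bears on every small increase. Loess sets the ratio to 0 at each brightness. With each array centred on its median instead, the median of all tested genes was -0.26, and 0 members were called higher and 17 lower. Of the 13 members lower under loess, 11 were also lower with that centring, and 18 of the 34 members lay above the all-gene median. For the increases below, the distance from the all-gene median under median centring is therefore given as well, as a description. With the normexp background model fitted on all spots, scanner-marked ones included, 8 members were higher and 5 lower. That fit ended the calls of Pcdh10, Ctnnd1, Cdh10, Pcdh8, Fat3, Ctnna2, Cdh15, Ctnnd2, Cdh20, Pcdh20 and Pcdh11x, and brought Pcdh8 to -0.077, Celsr1 to -0.20 and Pcdh9 to 0.22.

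**Figure D1:**
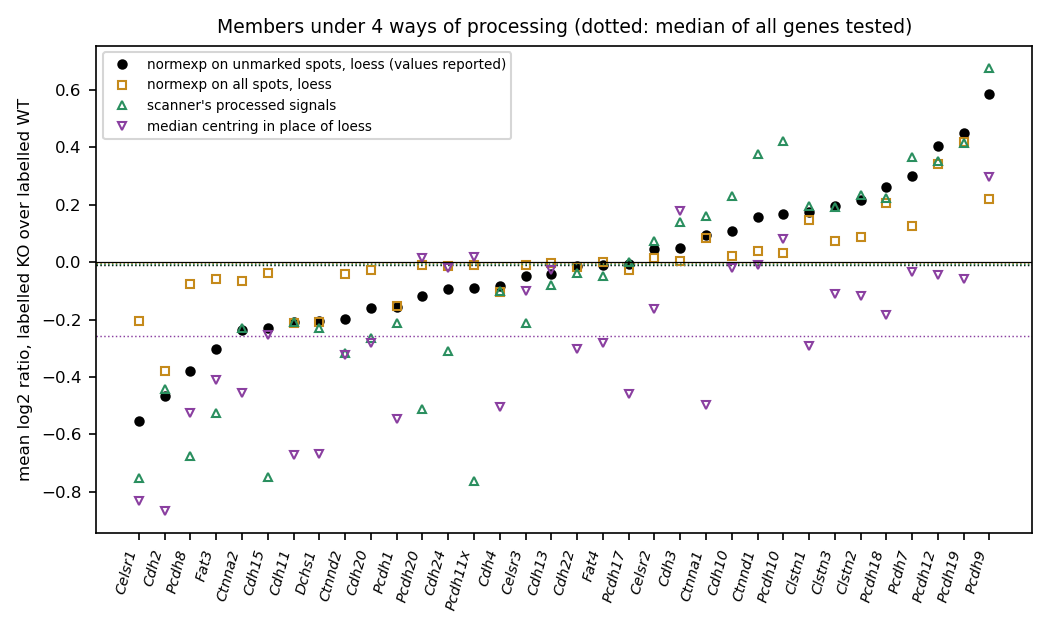
Mean log2 ratio (vertical axis) of the 34 tested members, ordered by the value reported, under 4 ways of processing, with a dotted line at each setting's median of all tested genes. Median centring shifts its median to -0.26 and leaves 0 members called higher, and normexp on all spots draws Celsr1, Pcdh8 and Pcdh9 toward 0.

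**Figure D2:**
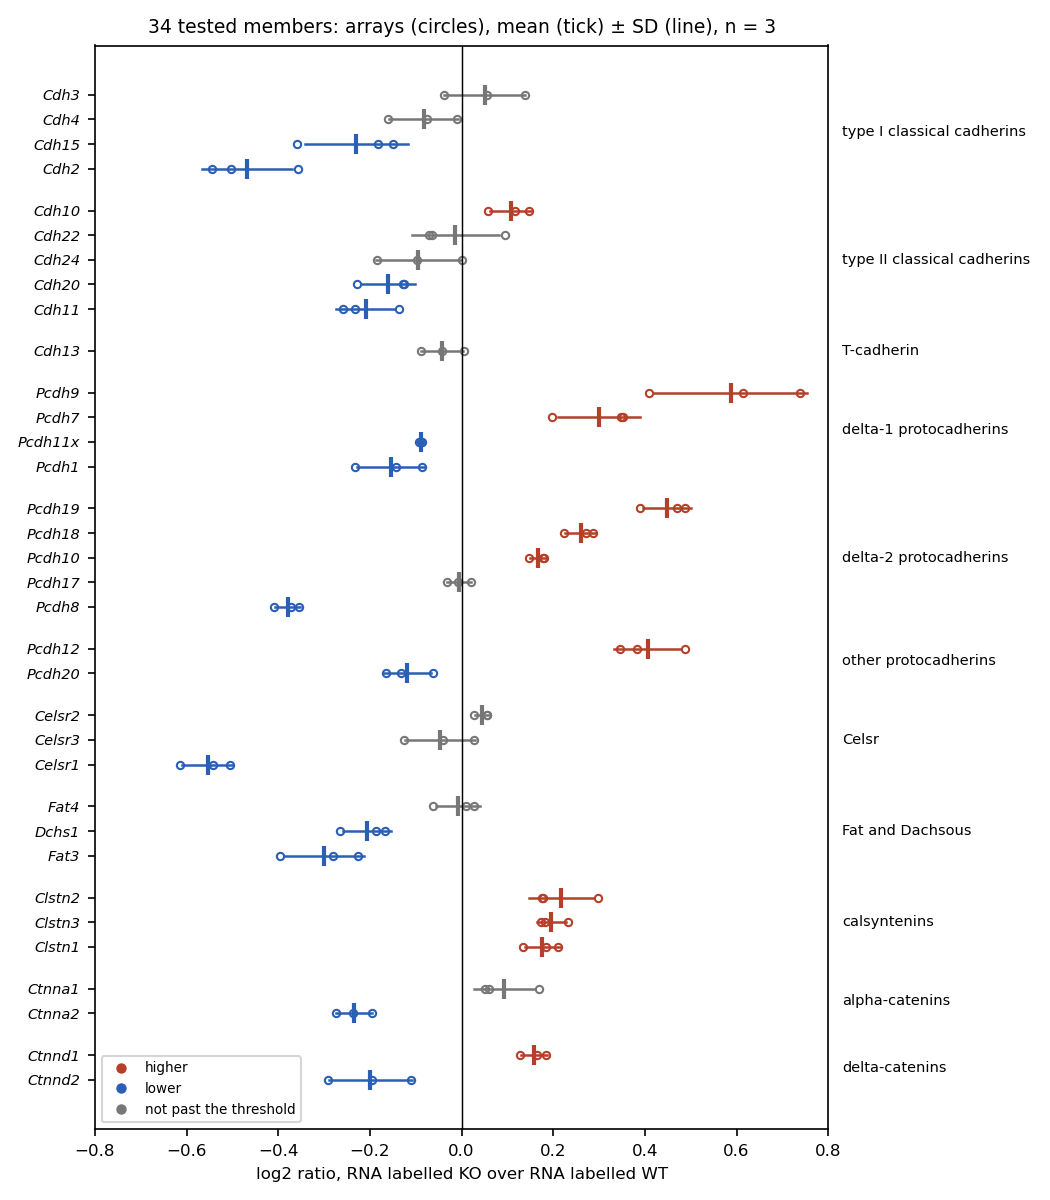
Log2 ratio, labelled KO to labelled WT (horizontal axis) for the 34 tested members, grouped by role and coloured by call; circles are arrays, ticks their mean and lines its SD (n = 3). The 11 members called higher lie above 0 and the 13 called lower lie below 0 on each of the 3 arrays; with median centring 0 members are called higher and 9 of the 11 turn below 0.

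Under loess, the largest increases were in non-clustered protocadherins. Pcdh9, Pcdh19, Pcdh12, Pcdh7, Pcdh18 and Pcdh10 were higher in the RNA labelled KO, while Pcdh8, Pcdh1, Pcdh20 and Pcdh11x were lower and Pcdh17 did not pass the threshold. Relative to the all-gene median under median centring, Pcdh9 lay 0.55 above, Pcdh10 0.34, Pcdh7 0.22, Pcdh12 0.21, Pcdh19 0.20 and Pcdh18 0.073. Such distances were not particular to members called higher: Cdh3 (0.44), Cdh24 (0.24) and Cdh13 (0.23), which did not pass the threshold under loess, and Pcdh11x (0.28) and Pcdh20 (0.27), which were called lower, also lay above it. Their ratios to 0 under that centring were no longer past the threshold, and those of Pcdh19, Pcdh12, Pcdh7 and Pcdh18 fell below 0. By subfamily under loess, 2 of the 4 delta-1 protocadherins were higher and 2 lower, and of the 5 delta-2 protocadherins 3 were higher and 1 lower.

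Pcdh9, a delta-1 protocadherin of the brain, had log2 ratios of 0.41, 0.61 and 0.74, a mean of 0.59 ± 0.17 (SD, n = 3, adjusted p = 0.00013, limma). Its log2 intensities were 8.33, 8.42 and 8.61 for labelled KO against 7.92, 7.80 and 7.87 for labelled WT. The lowest labelled KO value was above the highest labelled WT value. Its median-centred ratio was 0.29 (adjusted p = 0.051). Pcdh7, another delta-1 member, gave 0.20, 0.35 and 0.35 (mean 0.30 ± 0.089, adjusted p = 0.00065). The remaining delta-1 members were lower: Pcdh1 gave -0.23, -0.087 and -0.14 (mean -0.15 ± 0.074, adjusted p = 0.012), and Pcdh11x, an X-linked gene, gave -0.093, -0.089 and -0.086 (mean -0.089 ± 0.0033, adjusted p = 0.047), a difference that median centring turned to 0.017. Pcdh11x was near background: its labelled KO signal was well above it on 2 arrays. It therefore entered the test only through the labelled WT channel, where it is higher. Its call was lost when any 1 of the replicates was left out or the filter on dim probes dropped. Without the pairing of channels on an array, the adjusted p was 0.074 for Pcdh1 and 0.15 for Pcdh11x.

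Among the delta-2 protocadherins, Pcdh19, an X-linked gene whose loss causes an epilepsy in humans, was higher at 0.39, 0.47 and 0.49 (mean 0.45 ± 0.052, adjusted p = 3.3e-05). Pcdh18 gave 0.22, 0.29 and 0.27 (mean 0.26 ± 0.034, adjusted p = 0.00043), and Pcdh10 gave 0.18, 0.18 and 0.15 (mean 0.17 ± 0.019, adjusted p = 0.0034). All 3 were higher on every array, with ranges well clear of 0 under loess. Pcdh8, known in development as paraxial protocadherin, went the other way at -0.41, -0.37 and -0.36 (mean -0.38 ± 0.027, 1.30-fold lower, adjusted p = 5.5e-05). Its log2 intensities averaged 6.97 for labelled KO and 7.35 for labelled WT. Pcdh17 gave -0.031, -0.0068 and 0.021 (mean -0.0056, 95% interval -0.080 to 0.069), a range that spans 0.

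Outside these subfamilies, Pcdh12, a protocadherin known from endothelium, gave 0.35, 0.49 and 0.38 (mean 0.41 ± 0.073, adjusted p = 9e-05). The probe behind this value was designed on an expressed sequence tag, and the probe on the Pcdh12 reference transcript was not well above background on any array. The value is therefore one of that tag's position and may not measure the Pcdh12 transcript. Of the endothelial markers Pecam1 and Tie1 were never well above background, and of the 9 others tested, 2 were higher and 2 lower. The summed intensity of all 11 was 11234 to 11531 for labelled KO against 8661 to 9026 for labelled WT, a sum in which the brightest genes weigh most. Pcdh20 was well above background for labelled WT on all 3 arrays and for labelled KO on 0. Its log2 ratios were -0.13, -0.16 and -0.062. By the measured log2 means of 6.12 and 6.24 Pcdh20 was 1.09-fold lower, which is the ratio itself and not a lower bound, but it gave 0.014 under median centring. Its adjusted p was 0.024, but it entered the test only through the labelled WT channel, where it is higher. The Pcdh20 call was lost without replicate 1 and without replicate 2, without the channel pairing (adjusted p = 0.12) and with the authors' deposited values.

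Promoters of some of the called members are shown because the labelled gene, Dnmt3a, encodes an enzyme that methylates cytosine in CpG pairs. The sequences are the 250 bases before each gene's first listed start, from RefSeq on build GRCm38.p6, read 5′ to 3′ along the gene's strand, with each CpG in capitals. They are the 3 largest increases and the 3 largest decreases among members with a promoter in the RefSeq table, whose members numbered 34 of 50. Celsr1 and Cdh2, which had the largest decreases, and Pcdh12, whose increase exceeded that of Pcdh7, had no promoter there and are not shown. Pcdh9 was read from chr14:93890680-93890929 on the minus strand (18 CpG), Pcdh19 from chrX:133688994-133689243 on the minus strand (16 CpG), and Pcdh7 from chr5:57717831-57718080 on the plus strand (7 CpG). Of the lower members, Pcdh8 was read from chr14:79771313-79771562 (11 CpG), Fat3 from chr9:16502055-16502304 (27 CpG) and Ctnna2 from chr6:77979668-77979917 (30 CpG), all on the minus strand.
Pcdh9: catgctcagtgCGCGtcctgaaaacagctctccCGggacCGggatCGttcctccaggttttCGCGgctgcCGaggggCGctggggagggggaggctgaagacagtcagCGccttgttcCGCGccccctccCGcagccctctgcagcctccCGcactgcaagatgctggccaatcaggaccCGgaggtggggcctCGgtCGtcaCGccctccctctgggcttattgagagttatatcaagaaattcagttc
Pcdh19: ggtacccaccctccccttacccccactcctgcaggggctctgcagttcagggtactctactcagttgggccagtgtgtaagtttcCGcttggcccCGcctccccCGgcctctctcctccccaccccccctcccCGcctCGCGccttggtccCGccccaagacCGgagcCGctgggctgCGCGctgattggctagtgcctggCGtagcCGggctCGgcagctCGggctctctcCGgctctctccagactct
Pcdh7: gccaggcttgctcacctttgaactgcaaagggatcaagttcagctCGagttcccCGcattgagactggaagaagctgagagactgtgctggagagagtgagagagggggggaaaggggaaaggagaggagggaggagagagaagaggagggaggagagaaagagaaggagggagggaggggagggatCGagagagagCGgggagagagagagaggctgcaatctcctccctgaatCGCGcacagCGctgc
Pcdh8: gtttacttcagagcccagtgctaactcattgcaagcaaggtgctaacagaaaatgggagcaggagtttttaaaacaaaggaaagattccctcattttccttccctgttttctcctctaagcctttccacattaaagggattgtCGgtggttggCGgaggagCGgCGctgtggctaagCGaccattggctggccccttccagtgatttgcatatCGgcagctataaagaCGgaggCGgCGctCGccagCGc
Fat3: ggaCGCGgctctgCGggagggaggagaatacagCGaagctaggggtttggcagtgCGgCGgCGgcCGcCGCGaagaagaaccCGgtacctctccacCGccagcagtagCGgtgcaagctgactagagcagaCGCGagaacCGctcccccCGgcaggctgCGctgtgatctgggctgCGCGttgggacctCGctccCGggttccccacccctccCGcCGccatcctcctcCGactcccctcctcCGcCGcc
Ctnna2: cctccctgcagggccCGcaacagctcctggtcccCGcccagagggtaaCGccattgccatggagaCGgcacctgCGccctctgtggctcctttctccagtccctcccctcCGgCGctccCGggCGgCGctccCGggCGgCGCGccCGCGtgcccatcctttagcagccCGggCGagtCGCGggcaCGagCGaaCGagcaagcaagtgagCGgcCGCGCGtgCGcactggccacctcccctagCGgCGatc
Both directions held CpG-rich and CpG-poorer promoters.

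The number of CpG in this window was described over all members with an entry. Members called higher had a median of 20 CpG (10 promoters, 2 to 38), those called lower a median of 11 (7 promoters, 3 to 30), and those not past the threshold 21.5 (6 promoters, 11 to 32). Without an entry were Celsr1, Cdh2, Cdh11, Dchs1, Pcdh1 and Pcdh11x, which were called lower, and Pcdh12, called higher. The 11 promoters of members that were not tested had a median of 6 (0 to 36). Over all tested genes with an entry the median was 15, and it was 15 for genes called higher and 16 for genes called lower. A window with over 50% G and C and an observed-to-expected CpG ratio over 0.6 was called island-like. By that definition 6 of 10 higher, 4 of 7 lower, 6 of 6 not past the threshold and 3 of 11 untested members were island-like, against 56.7% of tested genes and 31.2% of all 27025 promoters. The ranges of the higher and lower members overlap. The E-box CAGGTG, a motif that Snail and Zeb factors can bind, was in 6 of the 34 members' windows (17.6%, both strands searched) and in 17.1% of all windows. Methylation was not measured in these samples.

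Several protocadherin genes were read by more than 1 probe, and the probes did not always move together. At probe level 44.4% of the 26626 tested probes were called. Pcdh9 had 5 tested probes, positioned on mm7 between 87361880 and 88234627 of chromosome 14, and all 5 were higher. Beside the brightest (0.59, at 88233295 to 88233354), the others gave 0.64, 0.65, 0.35 and 0.10, the last being the dimmest, with a labelled WT signal well above background on 0 arrays. That dimmest probe passed the filter only through the labelled KO channel, where it is higher, so its direction adds no support.

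Pcdh10 showed a split. The probe standing for the gene (3:45335902-45335959) was higher at 0.17, and one at 45363028 gave 0.060 (adjusted p = 0.19). Another, designed on the Pcdh10 reference transcript and lying upstream (3:45325420-45325479), was lower at -0.23, -0.22 and -0.13 (mean -0.19 ± 0.057, adjusted p = 0.0034). That upstream probe was near background, at mean log2 intensities of 6.01 for labelled KO and 6.21 for labelled WT. It was well above background for labelled KO on 2 arrays and for labelled WT on 3, so it passed the filter only through the channel where it is higher. With the mean of its probes, Pcdh10 gave 0.012 (adjusted p = 0.77), so its call rests on which probe is read. Pcdh17, not past the threshold at its brightest probe, had another 3′ of it (14:79213252-79213311) that was higher at 0.21 ± 0.053 (adjusted p = 0.0020), and a further one at 0.0081. Pcdh19 was higher at its brightest probe (X:128307030-128307089), while the probe farther upstream on the minus strand (X:128405087-128405146) gave 0.056 ± 0.093 (adjusted p = 0.32). The annotation of exons on mm7 was not used here, so the transcripts that each probe reads were not compared.

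**Figure D3:**
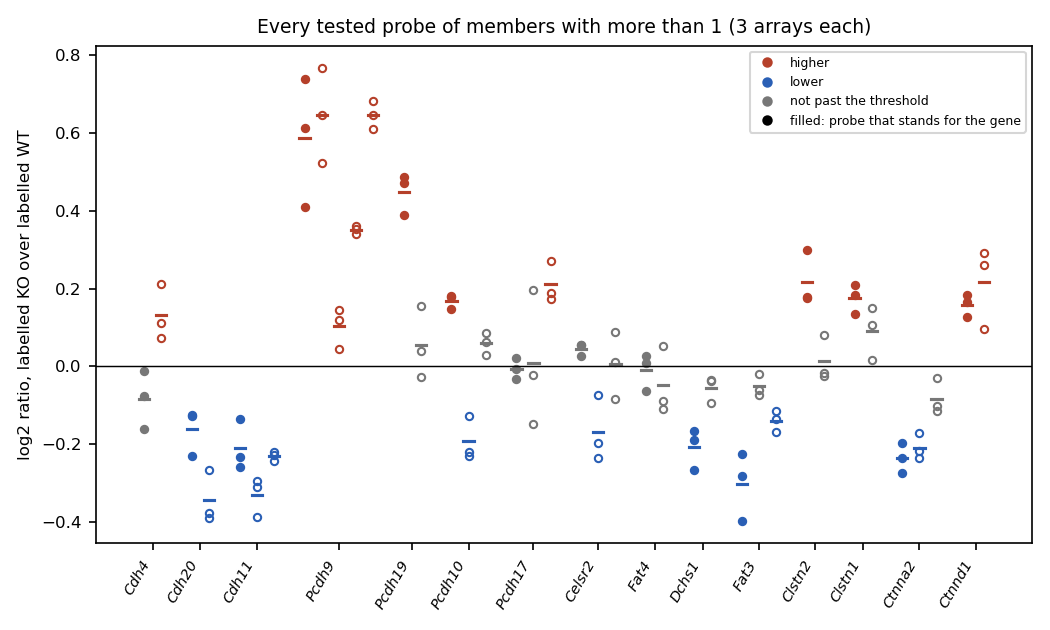
Log2 ratio, labelled KO to labelled WT (vertical axis) for each tested probe of the members with more than 1 tested probe, with its 3 arrays as circles, filled for the probe that stands for the gene, and a bar at the mean. All 5 Pcdh9 probes lie above 0, though the dimmest entered the test only through the labelled KO channel, where it is higher. All 3 Cdh11 probes lie below 0, whereas Pcdh10 has probes called in opposite directions, the one called lower being near background.

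Of the type I classical cadherins, the adhesion molecules of epithelia, nerve and muscle, 2 of 4 tested were lower and 0 were higher. N-cadherin (Cdh2), the main classical cadherin of neural progenitors, gave -0.50, -0.54 and -0.36 (mean -0.47 ± 0.10, SD, n = 3, 1.38-fold lower, adjusted p = 7.9e-05, limma). Its log2 intensities were 9.44, 9.38 and 9.48 for labelled KO and 9.94, 9.92 and 9.84 for labelled WT. The highest labelled KO value was below the lowest labelled WT value, and under median centring Cdh2 lay 0.61 below the all-gene median. Only 1 of its 3 probes was above background, and that probe's listed position covers 30 of the usual 60 bases.

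M-cadherin (Cdh15), known from muscle precursors, was lower at -0.36, -0.18 and -0.15 (mean -0.23 ± 0.11, adjusted p = 0.0043). Of 5 tested markers of skeletal muscle precursors, 3 were lower and 0 higher, and Myf5 and Myh3 were never well above background. Their summed intensity was 573 to 598 for labelled KO and 713 to 736 for labelled WT. The sum takes in all 7 markers listed, and a gene at background still adds to it through the offset of the background correction. It is therefore not a measure of muscle signal alone. The part of muscle precursors in the Cdh15 result was not tested. Cdh15 was dim, at mean log2 intensities of 6.58 for labelled KO and 6.81 for labelled WT. Its adjusted p was 0.22 without the channel pairing and 0.18 with normexp on all spots (limma). P-cadherin (Cdh3) gave 0.051 ± 0.088 (adjusted p = 0.34). R-cadherin (Cdh4) gave -0.16, -0.076 and -0.011 at its brightest probe (mean -0.083 ± 0.076, adjusted p = 0.11). A dimmer Cdh4 probe on the reference transcript was higher at 0.13 ± 0.072 (adjusted p = 0.024).

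E-cadherin (Cdh1), the cadherin of epithelia, was at background. Its single probe, spotted 10 times, gave log2 intensities of 5.93, 5.94 and 5.90 for labelled KO and 5.94, 5.96 and 5.94 for labelled WT. The probe, read over its spots together, was not well above background in either channel on any array, so Cdh1 was not tested. Of the 15 epithelial markers, Krt19, Cldn6, Ocln, Esrp1 and Spint2 were likewise never well above background, and of 8 tested 1 was higher and 3 lower. VE-cadherin (Cdh5), the cadherin of endothelium, was also at background at both of its probes, with log2 intensities on arrays 1 to 3 of 6.01, 6.01 and 6.06 for labelled KO and 6.04, 6.08 and 6.08 for labelled WT at one. At the other they were 6.03, 6.03 and 6.02 for labelled KO and 5.93, 5.91 and 5.94 for labelled WT.

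Of the 13 type II classical cadherins, which mark groups of neurons and mesenchymal cells, 5 were tested: 1 was higher and 2 were lower. Cdh11, a cadherin of mesenchyme that neural progenitors can also carry, was lower at -0.23, -0.26 and -0.14 (mean -0.21 ± 0.065, adjusted p = 0.0023). Its other probes gave -0.33 ± 0.049 and -0.23 ± 0.013, so all 3 were lower on all 3 arrays. Of 12 fibroblast and mesenchyme markers, 6 were lower, 3 were higher and 3 had no call, beside 25.5% lower and 22.5% higher over all genes. Their summed intensity was 174126 to 177623 for labelled KO against 214451 to 232185 for labelled WT. Col1a2 (-1.48) and Col1a1 (-0.97) were lower in that list and S100a4 (2.43) was higher, and the part of these cells in the Cdh11 result was not tested.

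Cdh20 was lower at -0.13, -0.13 and -0.23 (mean -0.16 ± 0.059, adjusted p = 0.0074), and its dimmer probe gave -0.34 ± 0.068. Without replicate 3 its adjusted p at the brighter probe was 0.062. Cdh10 was higher at 0.057, 0.15 and 0.12 (mean 0.11 ± 0.046, adjusted p = 0.033), the smallest of the increases, and -0.020 under median centring, 0.24 above the all-gene median. Only 1 of its 7 probes was tested, its call was lost without replicate 2 and without replicate 3, and without the channel pairing its adjusted p was 0.11. Cdh22 (-0.013 ± 0.094) did not pass the threshold. Cdh24 did not either (-0.094 ± 0.093, adjusted p = 0.099), but it was lower at -0.31 with the scanner's processed signals (adjusted p = 0.015) and with the authors' deposited values (adjusted p = 0.014), and at -0.14 without replicate 2 (adjusted p = 0.030). T-cadherin (Cdh13), a cadherin anchored by a lipid and without a tail inside the cell, gave -0.042 ± 0.047 (adjusted p = 0.34).

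The Celsr and Fat families, which organise cells within a sheet, had with Dachsous 3 calls among 6 tested members, all lower (50% against 48.0% of all genes), while Fat1, outside the naming rule, was higher. Celsr1 had the largest decrease among members in the values reported here, though not under every alternative: -0.61, -0.54 and -0.50 (mean -0.55 ± 0.056, SD, n = 3, 1.47-fold lower, adjusted p = 1.2e-05, limma). Its log2 intensities were 7.70, 7.72 and 7.81 for labelled KO and 8.31, 8.26 and 8.31 for labelled WT. The highest labelled KO value was below the lowest labelled WT value, and Celsr1 lay 0.57 below the all-gene median under median centring. Celsr2 gave 0.056, 0.055 and 0.027 (mean 0.046, 95% interval -0.028 to 0.12), and Celsr3 gave -0.13, -0.040 and 0.026 (mean -0.046, 95% interval -0.14 to 0.043). Neither passed the threshold, though a dimmer Celsr2 probe, designed on a cDNA clone, was lower at -0.17 ± 0.085 (adjusted p = 0.011).

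Fat3, an atypical cadherin that shapes neurons in the retina, was lower at -0.40, -0.23 and -0.28 (mean -0.30 ± 0.087, 1.23-fold, adjusted p = 0.00061). Of its other tested probes, 1 was lower (-0.14, adjusted p = 0.011) and 1 did not pass the threshold (-0.051). Dchs1, a Dachsous ligand of Fat4, was lower at -0.19, -0.17 and -0.27 (mean -0.21 ± 0.052, adjusted p = 0.0019), and its second probe gave -0.056 (adjusted p = 0.22). Fat4, its partner, gave 0.028, -0.063 and 0.0093 (mean -0.0086, 95% interval -0.088 to 0.071). Ligand and partner thus differed in call, but the difference between them was not tested. Fat1 is listed in the files under its older name Fath and so fell outside the naming rule. It gave 0.47, 0.47 and 0.49 (mean 0.48 ± 0.014, adjusted p = 1.4e-05), with other probes at 0.14 and 0.20, and it turned to -0.11 under median centring, where it lay 0.15 above the all-gene median. Fat2, listed as Fath2, was well above background in the labelled KO channel on 2 arrays only, with log2 ratios of 0.11, 0.12 and 0.11, and was not tested.

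**Figure D4:**
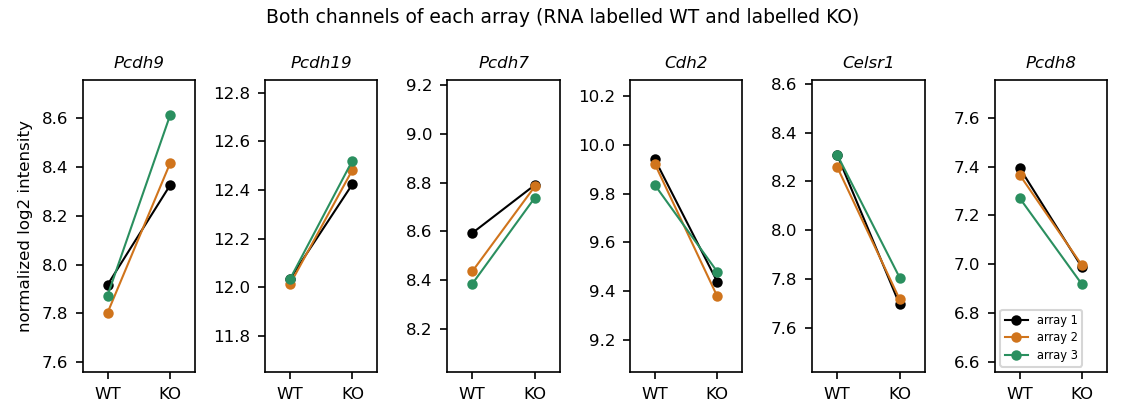
Normalized log2 intensity (vertical axis, the same span in each panel) in the labelled WT and labelled KO channels for 6 members; a line joins the channels of an array. Pcdh9, Pcdh19 and Pcdh7 are higher and Cdh2, Celsr1 and Pcdh8 lower in the labelled KO channel on every array, though with median centring Pcdh19 and Pcdh7 turn below 0.

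All 3 calsyntenins, which carry vesicles along axons and act in synapse formation, were higher in the RNA labelled KO under loess but turned below 0 under median centring. Clstn2 gave 0.18, 0.30 and 0.18 (mean 0.22 ± 0.070, adjusted p = 0.0022, limma). Clstn3 gave 0.17, 0.23 and 0.18 (mean 0.20 ± 0.032, adjusted p = 0.0018), and Clstn1 gave 0.18, 0.21 and 0.13 (mean 0.18 ± 0.038, adjusted p = 0.0033). Under median centring Clstn2 and Clstn3 lay 0.14 and 0.15 above the all-gene median, but Clstn1 lay 0.033 below it, at a ratio of -0.29 (adjusted p = 0.035). Dimmer probes of Clstn1 (0.091) and Clstn2 (0.013) did not pass the threshold.

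Among the catenins, the neural forms were lower. AlphaN-catenin (Ctnna2), the alpha-catenin of neurons, gave -0.27, -0.20 and -0.24 (mean -0.24 ± 0.039, 1.18-fold, adjusted p = 0.00079), with other probes at -0.21 (adjusted p = 0.0016) and -0.082 (adjusted p = 0.092). Delta-catenin (Ctnnd2), a neural relative of p120, gave -0.29, -0.11 and -0.20 (mean -0.20 ± 0.090, adjusted p = 0.0052). Both were lower on every array. Neuron markers were lower in 4 of 8 tested and higher in 0, beside 25.5% lower over all genes. The summed intensity of all 11 on the array was 2628 to 2961 for labelled KO and 2820 to 2932 for labelled WT. The part of neurons in the catenin results was not tested.

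The broadly expressed forms were higher or not past the threshold under loess. AlphaE-catenin (Ctnna1), which couples most cadherins to actin, gave 0.17, 0.059 and 0.051 (mean 0.093, 95% interval 0.0075 to 0.18, adjusted p = 0.071). A further probe that the gene table assigns to it, listed under another name in the files, was higher at 0.25 ± 0.13 (adjusted p = 0.0048). Ctnna1 passed the threshold with the mean of its probes (0.17, adjusted p = 0.0041) and with the scanner's processed signals (0.16, adjusted p = 0.042). P120-catenin (Ctnnd1) was higher at 0.18, 0.13 and 0.16 (mean 0.16 ± 0.029, adjusted p = 0.0049), with a second probe at 0.22 ± 0.11. Under median centring Ctnnd1 lay 0.25 above the all-gene median, at a ratio of -0.0096, while Ctnna1 lay 0.24 below it, at -0.50 (adjusted p = 0.0036).

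The 16 members without a test were at or near background on these arrays. Cdh1, Cdh5, Cdh7, Cdh8, Cdh9, Cdh12, Cdh17, Cdh18, Cdh19, Cdh23, Ctnna3, Pcdh15 and Pcdh21, 13 in all, were not well above background in either channel on any array at any probe. They include Cdh23 and Pcdh15, the tip-link cadherins of hair cells, Pcdh21, a photoreceptor cadherin, and Ctnna3, the alpha-catenin of heart. Cdh16 was well above background for labelled WT on 2 arrays, Cdh6 for labelled WT on 1, and Cdh26 in both channels on 2, its spot on the third being marked by the scanner. No ratio is given for these genes.

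Members on the same chromosome were called in opposite directions on chromosomes 6, 9, 14, 15, 18 and X. On mm7 chromosome 14, Pcdh8 (74447610) and Pcdh20 (83196239) were lower, Pcdh17 (79210409) did not pass the threshold at its brightest probe, and Pcdh9 (88233295) was higher. On the X chromosome Pcdh11x was lower and Pcdh19 higher. On chromosome 3, Pcdh10 and Pcdh18 were both higher under loess, and Celsr2 and Fat4 did not pass the threshold.

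The other genes of cadherin adhesion were read from lists of pathway members, under loess only, and how their counts move with median centring was not tested. Over all genes tested 22.5% were higher and 25.5% lower. No list here or in the next paragraphs was tested against these shares. Of 25 adherens junction partners, 10 were higher and 5 lower (median 0.0098). The actin linker Vcl (0.60 ± 0.055), the delta-catenin relative Arvcf (0.48 ± 0.081), the scaffold Iqgap1 (0.45 ± 0.045) and the alpha-catenin relative Ctnnal1 (0.39 ± 0.047) were the largest, all higher. Beta-catenin itself, Ctnnb1, gave 0.0074 ± 0.030 (adjusted p = 0.87). Of 9 genes of the nectin and afadin adhesion system, 8 were tested, 2 higher and 4 lower (median -0.15). Those lower included Nectin3 (-0.37 ± 0.027), Pvr (-0.23 ± 0.071) and Afdn, which is afadin (-0.22 ± 0.11).

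Among 16 genes that cut or process cadherins, 8 were higher and 2 lower (median 0.12). Mmp3, stromelysin, a matrix metalloprotease, was the largest at 3.01 ± 0.059, with the proprotein convertases Pcsk6 at 0.65 ± 0.090 and Pcsk5 at -0.50 ± 0.022, and the sheddase Adam17 at 0.49 ± 0.18. Adam10, the main sheddase of N-cadherin, did not pass the threshold (0.071 ± 0.077). Of 11 transcription factors tested that repress cadherins, 2 were higher and 4 lower (median -0.027): Zeb1 (-0.35 ± 0.039) and Snai2 (-0.29 ± 0.017) were lower, Prrx1 (0.28 ± 0.093) and Twist1 (0.27 ± 0.066) higher. Of 3 tested factors that promote epithelial genes, Klf4 (0.59 ± 0.040) was higher, Ovol2 (-0.12 ± 0.023) lower and 1 not past the threshold. Cdh1, which both kinds of factor act on in epithelia, was at background throughout.

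Of 23 planar polarity partners of Celsr, 5 were higher and 7 lower (median 0.0027), the largest being Prickle3 (-0.77 ± 0.026), Ankrd6 (0.46 ± 0.080), the receptor Fzd3 (-0.34 ± 0.028) and the ubiquitin ligase Smurf2 (0.20 ± 0.033). Vangl2, the core partner of Celsr1, gave 0.13 ± 0.10 (adjusted p = 0.038). Of 29 genes of the Fat-Dachsous and Hippo pathway, 11 were higher and 6 lower (median 0.060). Ccn1 (0.53 ± 0.12) and Ccn2 (0.40 ± 0.15), which are targets of the coactivator Yap1, were higher with Amotl2 (0.30 ± 0.074), while Yap1 itself was lower at -0.11 ± 0.0073.

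Of 12 kinesin and vesicle partners of the calsyntenins, 2 were higher and 3 lower (median -0.073). The motor genes Kif5a (-0.66 ± 0.028) and Kif5c (-0.54 ± 0.027) were lower, and App (0.27 ± 0.10) and the light chain Klc4 (0.12 ± 0.023) higher. The desmosome, a junction built on other cadherins, had 15 genes on the array, of which 5 were tested: Perp (2.00 ± 0.057), Pkp2 (0.85 ± 0.16) and Dsp (0.18 ± 0.071) were higher and 2 did not pass the threshold. Its cadherins Dsg1a, Dsg1b, Dsg3, Dsg4, Dsc1 and Dsc3 were never well above background, nor was Pkp3.

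**Figure D5:**
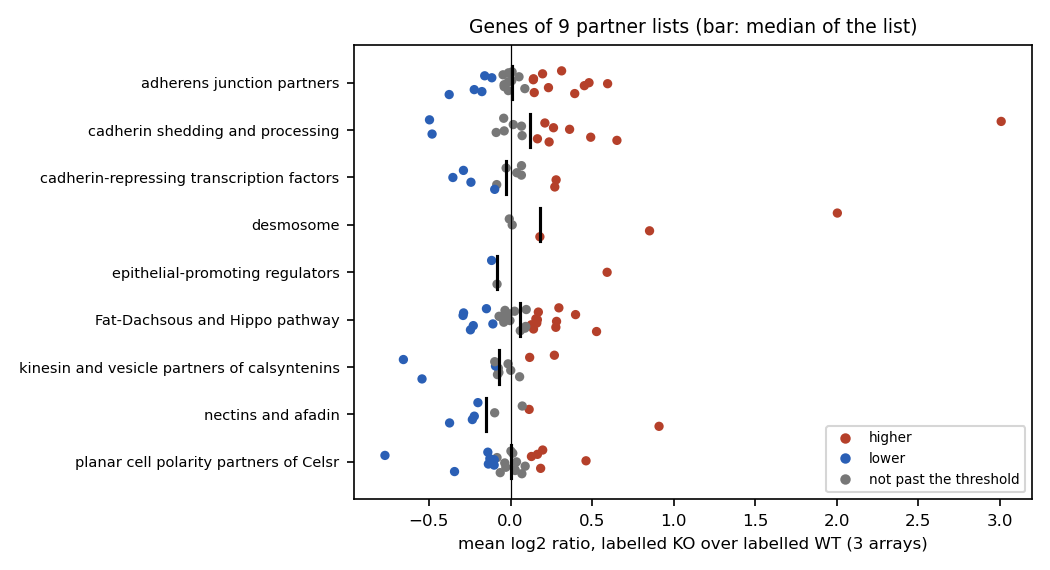
Mean log2 ratio over 3 arrays (horizontal axis) of each tested gene of the 9 partner lists, 1 point per gene coloured by call, with a bar at each list's median. Mmp3 at 3.01 and Perp at 2.00 stand far to the right of the rest, and the medians lie between -0.15 and 0.18.

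Markers of further cell types were read as whole lists, beside 22.5% higher and 25.5% lower over all genes tested, and were not tested against these shares. Of 12 NSC markers 3 were higher and 7 lower. Their summed intensity went the other way, at 138559 to 160649 for labelled KO against 109138 to 123545 for labelled WT. The brightest genes weigh most in such a sum, so it does not describe the list as a whole. Of the oligodendrocyte lineage 5 of 9 tested were lower and 0 higher, of astrocytes 3 of 6 lower and 0 higher. Of embryonic stem cells 1 of 5 was higher and 1 lower, with Nanog, Zfp42 and Dppa3 never well above background. Of microglia 1 of 4 was higher and 1 lower, with Ptprc and Adgre1 never well above background. Of 8 neural crest and Schwann cell markers 1 was higher, 1 lower and 6 not past the threshold (median -0.032). Their summed intensity, in which the brightest genes weigh most, was 4417 to 4671 for labelled KO against 8992 to 9403 for labelled WT. The sum therefore does not describe the list as a whole. In RNA of whole cultures, fewer cells of a type and less RNA per cell cannot be told apart.

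Over the 18033 genes the ratios of pairs of arrays correlated at Pearson's r = 0.910, 0.910 and 0.932, across genes, which are not independent replicates. The share of probes well above background was 63.6% to 65.0% for labelled KO and 65.5% to 68.8% for labelled WT. No probe that stands for a tested member was saturated, and the members' other probes were not checked for it. Of the members named, Cdh2, Celsr1, Cdh11 and Dchs1, were called lower in all settings and with each replicate left out.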

How the data were processed

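Total RNA of both genotypes was compared on 3 two-channel Agilent arrays. Feature Extraction 9.5.3.1 made the deposited scanner files, per the file headers, with raw spot and background intensity values and probe positions on mm7. Per the file headers, the scanner software also wrote a log10 ratio (red to green) from its processed signals, used here as a check. The authors' deposited value table was set against that scanner ratio, turned to log2, and gave r = -0.998, -0.997 and -0.993 (slopes -0.999, -1.03 and -0.973). It was taken as log2 values with labelled KO in the numerator. Its column medians were 0.0276, and no source used here says how it was centred.

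Signals were corrected with normexp (offset 50, which draws dim ratios toward 0; limma 3.58.1, R 4.3.3), normalized by loess within arrays with control spots and scanner-marked spots (170, 173 and 242 per array) at weight 0, and averaged per probe. Marked spots were left out. The normexp model was fitted on unmarked spots, a choice made with the counts of the fit on all spots already known, so both counts are given. Its estimated background mean was -4.66 to 1.04 on unmarked spots and -489 to -167 on all spots. Probes well above background in 1 channel on all 3 arrays were tested (26626), and the brightest stood for a gene. Probes were named by accession, symbol or synonym through RefSeq gene tables, and otherwise by the file's name. Ratios were tested against 0 with limma's lmFit and eBayes, two-sided, with Benjamini-Hochberg adjustment over 18033 genes; ± is the SD over 3 arrays and intervals are limma's 95% intervals. The 2 RNAs of an array share its replicate number, so the ratio pairs them. Beyond the labels' word that replicates were biological, p-values measure only the spread between these samples, and their precision is limited by the number of arrays. The code was tested on simulated data.

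Values per array are given for members past the threshold and, whatever their test, for Cdh1, Cdh2, Cdh5, Ctnna1, Ctnnd1, Celsr1 to Celsr3 and Fat1 to Fat4; in each partner list up to 4 called genes with the largest ratios are named (1 gene is not reported here), and Ctnnb1, Adam10, Vangl2, Yap1 and the markers were named after their values were seen. Members and lists were chosen with earlier results of these data known.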

Additional observations from a re-analysis of the deposited data

How the results depend on the processing

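Of the members past the threshold, 11 were higher and 13 lower. These counts were 12 and 13 with the scanner's processed signals, 11 and 13 with the authors' values, the mean of probes or offset 16, 11 and 11 with the filter on both channels, and 11 and 12 with no filter. Median centring gave 0 higher. Normexp on all spots gave 5 lower, and 5451 genes called of all tested against 8659. Median centring also moved the share of calls that were higher from 47.0% to 7.24%. Leaving out 1 replicate gave 10 to 11 higher and 11 to 12 lower members. With the channels fitted separately and no replicate block, 10 members were higher and 9 lower; the calls of Cdh10, Pcdh11x, Pcdh20, Pcdh1 and Cdh15 were lost, and no other.

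Median centring reversed the sign of Pcdh19 (-0.058), Pcdh12 (-0.044), Pcdh7 (-0.035), Pcdh18 (-0.19), Clstn2 (-0.12), Clstn3 (-0.11), Clstn1 (-0.29), Ctnnd1 (-0.0096), Cdh10 (-0.020), Pcdh11x (0.017), Pcdh20 (0.014), Ctnna1 (-0.50), Celsr2 (-0.16) and Fat1 (-0.11). All but Pcdh11x and Pcdh20 moved down, as the all-gene median did (to -0.26). Members not called under loess that it brought past the threshold included Fat4 (-0.28), Pcdh17 (-0.46) and Cdh4 (-0.51). The mean of all probes reversed Celsr2 (-0.039), Pcdh17 (0.071) and Cdh4 (0.025), none of which had been called, and took Ctnna1 (0.17) past the threshold. Without replicate 2, Fat4 was reversed (range over the replicates left out -0.027 to 0.019), and without replicate 1, Pcdh17 (-0.019 to 0.0072). The scanner's processed signals moved Pcdh11x to -0.76, Cdh15 to -0.75, Celsr1 to -0.75, Cdh24 to -0.31, Celsr3 to -0.21, Ctnna1 to 0.16, Pcdh8 to -0.67, Fat3 to -0.53, Pcdh20 to -0.51, Pcdh10 to 0.42, Ctnnd1 to 0.38 and Cdh10 to 0.23. The cause of the other changes was not tested. Signal over background limits Pcdh20, Pcdh11x, Cdh15 and the 16 members without a test.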
